A study of Homo sapiens with 6 samples.

Results

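PRAME and the GAGE genes are cancer-testis antigens, genes read in the testis and in many tumours but in few other adult tissues. In the deposited count table of OVCA433 cells, the row named PRAME and every row whose name starts with GAGE and a number were taken, which gave 10 rows (PRAME and 9 GAGE rows) of 11957. The rows were chosen by their names, and a row exists only for a gene with enough counts (the lowest row mean over the 6 libraries is 31), so being read above that level is not a finding. OVCA433 is an established human ovarian cancer line. All 6 libraries were poly(A)-enriched and strand-specific, 3 labelled U2AF2 SINC and 3 labelled U2AF2 SI, and the labels state no other genotype, treatment or time. The series asks what a lack of U2AF2, which recognises the polypyrimidine tract before a 3′ splice site, does to the transcriptome of these cells. Neither abbreviation is spelled out, and nothing tells whether replicates are separate cultures, so every p-value here rests on a spread between libraries that may be technical.

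Under the SINC label U2AF2 itself had 247 ± 39.6 CPM (SD, n = 3), and under the SI label it had 335 ± 44.7 (SD, n = 3). The mean of its mRNA was thus lower under the SINC label. The groups did not overlap, but the highest SINC library, at 284.2 CPM, lay just below the lowest SI library, at 285.4. The edgeR log2 fold change was 0.44 ± 0.19 (SE, adjusted p = 0.653), so the difference did not pass over all rows. The exact permutation p was 0.1, the smallest this design allows. CPM are counts scaled to library size, with TMM correction for differences in library composition. No direction below says which libraries lacked U2AF2, and every difference is taken as the SI label minus the SINC label. Totals ran from 43333966 to 48976810 counts. Of 13 markers chosen for ovarian carcinoma cells only KRT8 and KRT18, keratins of simple epithelia, had rows. The other 11, among them MUC16, WFDC2, PAX8 and EPCAM, had no row and were not analysed here. Whether they lay below the count level that a row needs, or are missing for another reason, was not tested. If counts were the reason, most of the chosen markers would be low in these cells, so the list does not back the label. Of 14 germ cell markers, 0 had a row.

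PRAME is a leucine-rich repeat protein. It serves as a substrate receptor of a CUL2 ubiquitin ligase, is known as a repressor of retinoic acid receptor signalling, and is a target of tumour immunotherapy. GAGE genes lie in tandem repeats on the X chromosome and encode small, acidic, disordered proteins of germ cells. Both kinds of gene are silenced in most adult tissues with the help of DNA methylation, and loss of that methylation is a known way for tumours to read them.

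The copies decide what a GAGE row can measure, so the stretch that holds their differences is shown first. GENCODE release 29 names 13 GAGE genes, of which GAGE10, GAGE12B, GAGE13 and GAGE2E had no row and were not analysed here. The sequences run from position 110 to position 310 of the GAGE12D transcript, counted from 1 at its 5′ end, inside the coding part at positions 83 to 433. Capitals mark a base that differs from GAGE12D.
GAGE12C, GAGE12D and GAGE12E: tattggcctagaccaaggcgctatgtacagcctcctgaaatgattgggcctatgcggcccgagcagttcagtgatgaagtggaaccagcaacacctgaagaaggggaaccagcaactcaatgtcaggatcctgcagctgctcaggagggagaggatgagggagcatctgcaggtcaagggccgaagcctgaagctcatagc
GAGE12F and GAGE12G: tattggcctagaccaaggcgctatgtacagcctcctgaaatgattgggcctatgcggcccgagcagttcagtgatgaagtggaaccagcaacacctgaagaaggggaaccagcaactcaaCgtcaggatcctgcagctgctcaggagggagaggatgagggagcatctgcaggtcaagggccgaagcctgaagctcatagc
GAGE12H: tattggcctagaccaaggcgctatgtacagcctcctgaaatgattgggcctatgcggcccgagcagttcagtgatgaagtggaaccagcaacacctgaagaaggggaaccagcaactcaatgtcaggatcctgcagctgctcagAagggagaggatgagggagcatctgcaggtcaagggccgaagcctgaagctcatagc
GAGE12J: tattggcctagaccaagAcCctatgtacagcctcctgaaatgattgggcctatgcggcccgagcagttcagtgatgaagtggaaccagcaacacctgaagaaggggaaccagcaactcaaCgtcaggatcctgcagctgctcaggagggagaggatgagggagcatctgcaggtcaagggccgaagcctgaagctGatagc
GAGE2A: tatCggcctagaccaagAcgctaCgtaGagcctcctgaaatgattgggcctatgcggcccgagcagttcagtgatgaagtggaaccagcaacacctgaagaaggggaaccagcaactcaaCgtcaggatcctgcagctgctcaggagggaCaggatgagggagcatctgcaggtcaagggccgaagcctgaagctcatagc
GAGE1: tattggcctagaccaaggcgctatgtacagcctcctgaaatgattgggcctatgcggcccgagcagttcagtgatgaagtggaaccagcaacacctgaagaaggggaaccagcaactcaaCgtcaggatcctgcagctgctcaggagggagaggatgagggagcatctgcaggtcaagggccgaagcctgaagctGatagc

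The annotated transcripts of GAGE12C and GAGE12D are identical over 527 nt, and that of GAGE12E, of 520 nt, is identical over the 517 nt it shares with them. GAGE12G and the 527-nt transcript of GAGE12F are identical and differ from GAGE12D by T230C alone, with the GAGE12D base first. GAGE12H differs from GAGE12D by G254A alone. GAGE12J carries 4 differences (G127A, G129C, T230C and C305G) and GAGE2A carries 6 (T113C, G127A, T133C, C137G, T230C and G260C), and GAGE2A also lacks a few bases just before this stretch. GAGE1 has T230C and C305G here and 9 more differences further on, and its longest annotated transcript is 2873 nt.

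For a read length of 100 nt, the share of windows of each longest transcript that no other annotated gene holds was 100% for PRAME. The same share was 0% for GAGE12C, GAGE12D, GAGE12E and GAGE12G, 4.32% for GAGE12F, 22.6% for GAGE12J, 23.4% for GAGE12H, 46.6% for GAGE2A and 91.5% for GAGE1. PRAME reads could therefore be placed by sequence, whereas no read of 100 nt could tell GAGE12C from GAGE12D, and every window of GAGE12E is also found in another gene. How the counting split such reads is not given in the sources used here, and GAGE1 with GAGE2A, and GAGE12E with GAGE12F, also overlap on the same strand in the annotation. Of 32 annotated genes named PRAME, PRAMEF or PRAMENP, only PRAME had a row.

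**Figure D1:**
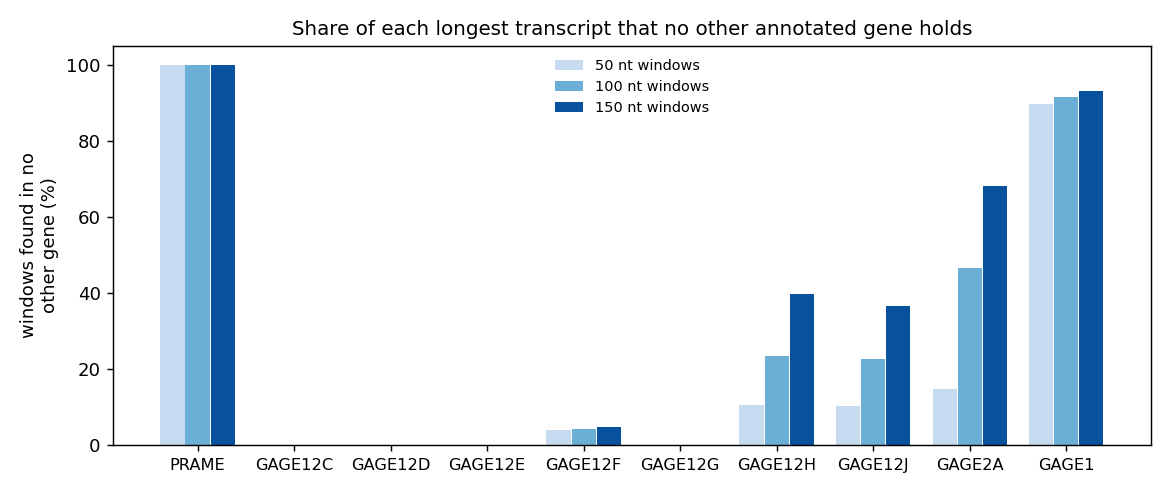
Share of windows (%) of each gene's longest GENCODE release 29 transcript that is found in no other annotated gene, for windows of 50, 100 and 150 nt (light to dark bars). PRAME stands at 100%, and GAGE12C, GAGE12D, GAGE12E and GAGE12G have no bar because their share is 0% at every window length.

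The promoters of the GAGE rows are copies as well. RefSeq (GRCh38.p14) windows from 250 bases before to 50 bases after a start were matched for all 9 GAGE rows and for PRAME, which has 3 starts. The GAGE12D window, chrX:49541483-49541782 on the plus strand, and the window of the PRAME start at chr22:22559216-22559515 on the minus strand are shown because the GAGE window carries 2 motifs of known germline-gene repressors that the PRAME window lacks. Capitals mark CACGTG, the E-box read by MYC-type and MGA proteins, and TCCCGC, a core of E2F sites, both searched on both strands and not overlapping one another.
GAGE12D promoter: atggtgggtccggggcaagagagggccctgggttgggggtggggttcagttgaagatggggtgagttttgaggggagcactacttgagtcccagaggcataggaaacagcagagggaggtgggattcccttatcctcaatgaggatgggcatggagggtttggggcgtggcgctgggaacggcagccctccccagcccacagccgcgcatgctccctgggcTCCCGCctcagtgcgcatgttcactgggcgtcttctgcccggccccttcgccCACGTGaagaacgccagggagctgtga
PRAME promoter: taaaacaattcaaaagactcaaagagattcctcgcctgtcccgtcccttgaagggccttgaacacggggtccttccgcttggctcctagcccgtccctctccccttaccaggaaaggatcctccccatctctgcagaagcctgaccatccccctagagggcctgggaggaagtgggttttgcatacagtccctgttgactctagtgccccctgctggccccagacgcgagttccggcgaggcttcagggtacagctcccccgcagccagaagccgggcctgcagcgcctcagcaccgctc

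Over the bases that align, 0 differences separated the window of any other GAGE row from that of GAGE12D, and each GAGE window held 1 CACGTG and 1 TCCCGC. The 3 PRAME windows held 0 of either. Of 35116 windows of the same length, 7.26% held CACGTG and 26.9% held TCCCGC. The GAGE windows had 13 CpG dinucleotides, and those of the 3 PRAME starts had 13, 12 and 4, beside a median of 14 over all windows. These matches describe the letters only.

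PRAME was well read in all 6 libraries. Its counts were 3643, 4174 and 5260 in libraries 1 to 3 labelled U2AF2 SINC and 6046, 5124 and 5803 in those labelled U2AF2 SI. On the CPM scale these were 85.1, 103 and 115 against 118, 103 and 136. The lowest library was SINC 1 and the highest SI 3, and the groups overlapped. PRAME averaged 101 ± 15.0 CPM (SD, n = 3) under the SINC label and 119 ± 16.4 under the SI label, a ratio of 1.18. The edgeR fit over all rows put its log2 fold change at 0.24 ± 0.18 (SE), 95% interval -0.16 to 0.64, and gave a Benjamini-Hochberg adjusted p of 0.752. A 2-sided exact permutation test of its CPM gave p = 0.2, where 3 libraries against 3 cannot go below 0.1. The difference did not exceed the spread between libraries, and the interval holds differences in both directions. Without SINC replicate 1, or without SI replicate 3, the log2 fold change was 0.13, and with library size alone as the scale it was 0.40. Because the genes were proposed with earlier results of these data known, these tests describe the fit and support nothing further.

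**Figure D2:**
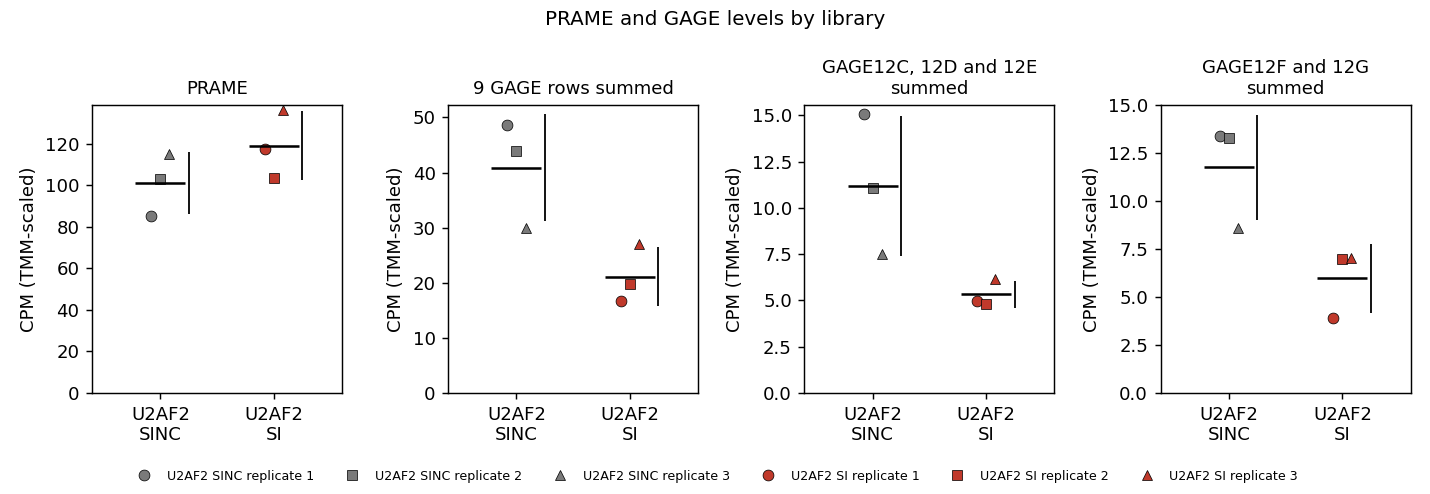
TMM-scaled CPM of PRAME, of the 9 GAGE rows summed, of GAGE12C, GAGE12D and GAGE12E summed, and of GAGE12F and GAGE12G summed, with 1 point per library (grey, labelled U2AF2 SINC; red, labelled U2AF2 SI; the shape gives the replicate). Horizontal lines are means and vertical lines SD over 3 libraries: the PRAME groups overlap, whereas each of the 3 GAGE sums is lower in every library labelled U2AF2 SI.

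Because the GAGE rows share reads, their sum is described before the single rows. The 9 rows together had 2085, 1778 and 1372 counts under the SINC label and 854, 977 and 1153 under the SI label. These were 48.7, 43.9 and 30.0 CPM against 16.6, 19.7 and 27.1 CPM. All 3 libraries labelled U2AF2 SI lay below the 3 labelled U2AF2 SINC, but the gap between SINC 3 and SI 3 was small. The summed level averaged 40.9 ± 9.72 CPM (SD, n = 3) against 21.1 ± 5.37 (SD, n = 3), 48.3% lower under the SI label. With the rows summed into 1 before the fit, edgeR gave a log2 fold change of -0.95 ± 0.25 (SE), a 95% interval from -1.49 to -0.41 and a Benjamini-Hochberg adjusted p of 0.659. The exact permutation p was 0.1, the smallest this design allows. In this design the permutation test cannot give a p under the threshold used here, so it cannot decide whether the sum differed. The sum did not pass the edgeR threshold. In the fit that kept the 9 rows apart, 0.00836% of all rows passed (1 of 11957).

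The transcripts of GAGE genes are short, and short transcripts as a class differed in level between these libraries. The 1133 rows with the shortest transcripts (median 1088 nt) deviated from their 6-library mean by a median log2 of 0.32, 0.31 and -0.07 in the libraries labelled U2AF2 SINC and -0.37, -0.11 and -0.05 in those labelled U2AF2 SI. The summed GAGE rows deviated by 0.76, 0.61 and 0.06 and by -0.79, -0.54 and -0.09. SINC 1 and SINC 2 were high and SI 1 and SI 2 low in both measures, and SINC 3 and SI 3 were near 0. PRAME, whose longest transcript has 2758 nt, deviated by -0.36, -0.08 and 0.08 and by 0.11, -0.07 and 0.32. The median log2 fold change of those short rows was -0.35, beside 0.04 for all rows. After removal of each library's own trend on length and GC, the GAGE sum gave -0.48 ± 0.14 (SE; edgeR adjusted p = 0.636) and PRAME gave 0.19 ± 0.15 (SE; edgeR adjusted p = 0.758). The part of transcript length in the GAGE difference was not tested beyond these values.

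**Figure D3:**
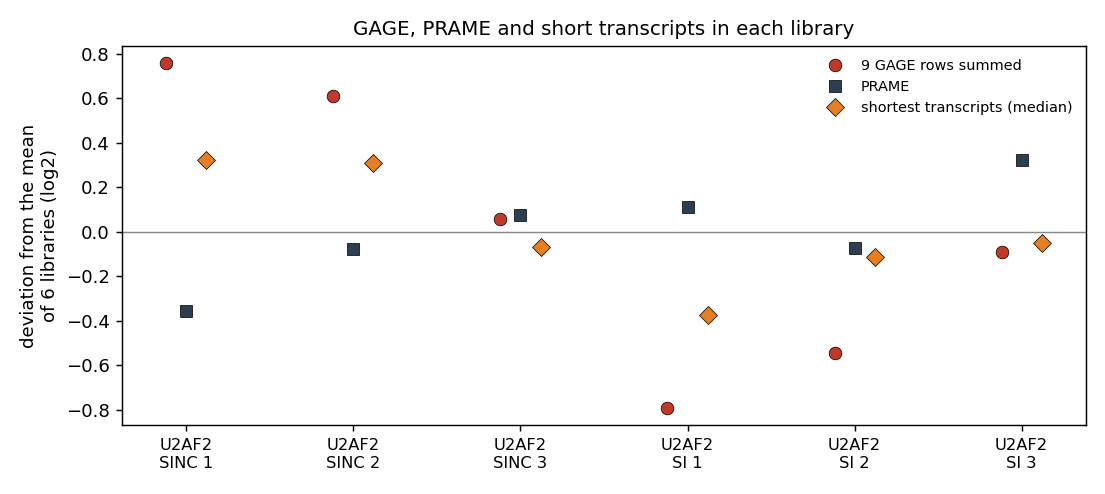
Deviation (log2 CPM) of each library from the mean of 6 libraries for the 9 GAGE rows summed (circles), PRAME (squares) and the median of the 1133 rows with the shortest transcripts (diamonds). GAGE and the short transcripts are both high in SINC 1 and SINC 2 and both low in SI 1 and SI 2, while PRAME is lowest in SINC 1 and highest in SI 3.

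Within the sum, rows that sequence separates poorly or not at all took unequal shares from library to library. GAGE12G had 341, 394 and 224 counts under the SINC label and 0, 157 and 299 under the SI label. GAGE12F, its copy, had 233, 143 and 169 against 200, 190 and 0. Where 1 of this pair was at 0 the other was not: in SI 1 GAGE12F held 23.4% of all GAGE counts, and in SI 3 GAGE12G held 25.9%. A count of 0 allows up to 3 counts, which is 0.0583 CPM for GAGE12G in SI 1 and 0.0704 CPM for GAGE12F in SI 3, counting error only. The pair summed to 574, 537 and 393 counts against 200, 347 and 299, so no library lacked both. On the CPM scale the sum was 13.4, 13.3 and 8.59 against 3.89, 7.01 and 7.02, without overlap, with a log2 fold change of -0.98 ± 0.31 (SE, edgeR adjusted p = 0.652).

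GAGE12C, GAGE12D and GAGE12E, with the same sequence where they align, did likewise. GAGE12C had 245, 214 and 107 counts against 88, 8 and 193, and GAGE12E had 161, 28 and 47 against 88, 144 and 6. GAGE12D had 239, 206 and 189 counts against 81, 87 and 64. In SI 2 GAGE12C was low and GAGE12E high, and in SI 3 the order was turned round, while GAGE12D stayed in a narrow range. The 3 rows summed to 645, 448 and 343 counts against 257, 239 and 263. Over the libraries labelled U2AF2 SI the coefficient of variation was 104% for GAGE12C, 87.5% for GAGE12E and 8.14% for GAGE12D, and 13.8% for their sum. Their log2 fold changes were -1.06 ± 0.78 for GAGE12C, -1.61 ± 0.33 for GAGE12D and -0.20 ± 0.84 for GAGE12E (SE), although no base separates the transcripts over their shared span. Leaving out 1 library moved GAGE12C to -0.50 without SI replicate 2 and to -2.24 without SI replicate 3. The sum, at 15.1, 11.1 and 7.50 CPM against 5.00, 4.83 and 6.17, gave -1.07 ± 0.30 (SE, edgeR adjusted p = 0.654) and did not overlap between groups.

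GAGE12D was the row with the smallest p among the copies. Its CPM were 5.58, 5.09 and 4.13 against 1.58, 1.76 and 1.50, with means of 4.93 ± 0.738 and 1.61 ± 0.131 (SD, n = 3), 67.3% lower under the SI label. In edgeR its unadjusted p was 0.000454 and its Benjamini-Hochberg adjusted p 0.653, so it did not pass over all rows. With the length and GC trend removed the log2 fold change was -1.07. None of its 100-nt windows is its own, so this value belongs to the row, not to the GAGE12D gene.

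GAGE2A had the highest mean level among the single GAGE rows, 7.22 CPM over the 6 libraries. The sums of rows with the same transcript were higher, 8.86 CPM for GAGE12F with GAGE12G and 8.27 CPM for GAGE12C, GAGE12D and GAGE12E. This rank therefore belongs to the row, not to the gene. The GAGE2A counts were 482, 403 and 341 against 229, 214 and 250, which was 21.7% to 26.8% of all GAGE counts in a library. Its CPM of 11.3, 9.96 and 7.45 did not overlap with 4.45, 4.32 and 5.87. The mean was 48.9% lower under the SI label, beside 48.3% for the family sum. Its log2 fold change was -0.97 ± 0.28 (SE, edgeR unadjusted p = 0.00545, adjusted p = 0.653), and -0.45 ± 0.19 with the length and GC trend removed.

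GAGE1, GAGE12H and GAGE12J completed the set. GAGE1 had 161, 210 and 180 counts against 87, 104 and 170, and its groups overlapped through SI 3. GAGE12H had 173, 132 and 63 counts against 37, 54 and 139, and overlapped more widely. GAGE12J, the row with the fewest counts, had 50, 48 and 52 against 44, 19 and 32, without overlap. Their log2 fold changes in edgeR were -0.73 ± 0.39, -0.78 ± 0.59 and -0.81 ± 0.46 (SE), with adjusted p of 0.693, 0.747 and 0.699. With the length and GC trend removed, GAGE12H gave -0.33 and GAGE12J -0.30, while GAGE1 gave -0.73. The trend was taken at the longest transcript, which for GAGE1 is 2873 nt. Its value at the length of its 564-nt transcript was not tested.

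Over the 9 GAGE rows, the log2 fold change was below 0 in 9, with a median of -0.81 beside 0.04 for all rows (-0.45 beside -0.01 with the length and GC trend removed), but GAGE12E turned positive with library size alone, without SINC replicate 1, without SI replicate 3 and with the length and GC trend removed. By edgeR 0 of the 9 rows passed the adjusted threshold of 0.05, and limma-voom also called 0, while DESeq2 gave no adjusted p for any of these rows. At an unadjusted p under 0.05 edgeR had 2 of the 9, both lower under the SI label (GAGE12D and GAGE2A), where 4.22% of all rows were lower by that rule and 7.37% differed in either direction. At an unadjusted p under 0.05 in either direction there were 5 of 9 without SI replicate 3, beside 786 of all 11957 rows. By limma-voom there were 4 of 9, beside 896 of 11957. Every other setting that kept the 9 rows gave 2. The groups did not overlap in 3 of the 9, all lower under the SI label, where 5.68% of all rows were. The rows share reads and are not 9 independent measurements, so these counts are not read as more than 1.

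**Figure D4:**
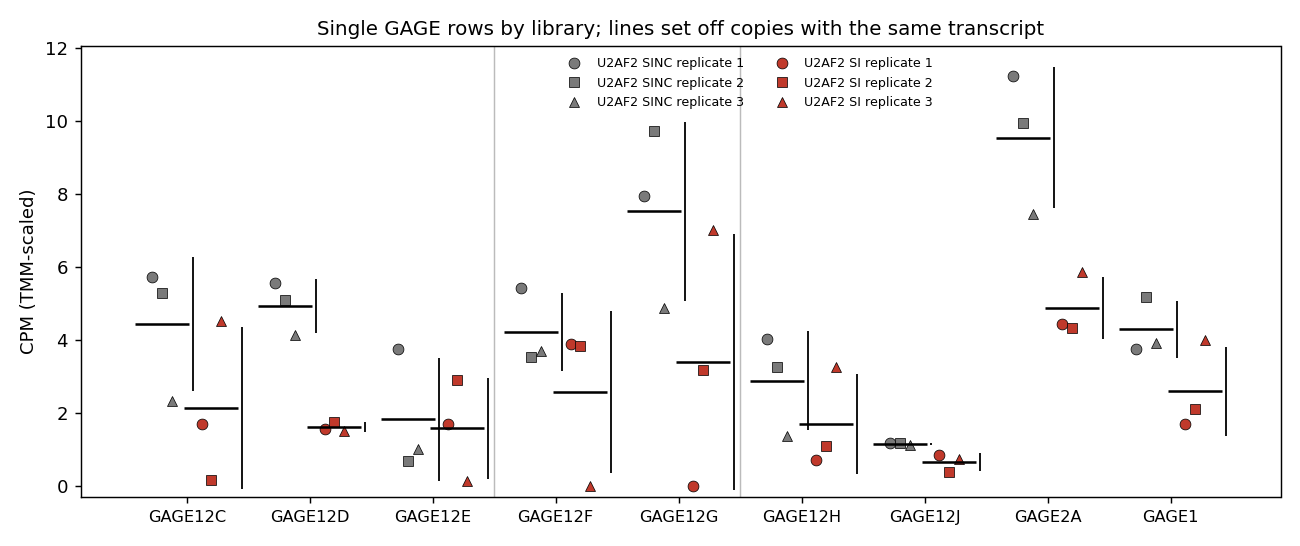
TMM-scaled CPM of each GAGE row, with 1 point per library (grey, labelled U2AF2 SINC; red, labelled U2AF2 SI), horizontal lines for means and vertical lines for SD over 3 libraries; vertical rules set off the groups of rows with the same transcript. GAGE12G in SI 1 and GAGE12F in SI 3 lie at 0, and GAGE12D, GAGE12J and GAGE2A are the rows whose groups do not overlap.

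Levels were compared between genes per kilobase of the longest transcript. PRAME had a mean of 39.9 CPM per kb over the 6 libraries, above 85.6% of rows on that scale. GAGE2A had 13.7 CPM per kb, GAGE12G 10.4, GAGE12C 6.25, GAGE12D 6.21, GAGE12F 5.81, GAGE12H 4.35, GAGE12E 3.28, GAGE12J 1.69 and GAGE1 1.20. Only PRAME was clear of the next gene: its lowest library, 30.8 CPM per kb, lay above the highest of GAGE2A, 21.3, while every other neighbour in this order overlapped over the libraries. GAGE1 would stand at 6.11 CPM per kb if its reads came from its 564-nt transcript. Summed per kilobase and averaged over all 6 libraries, the 9 GAGE rows had 52.8 CPM per kb, or 57.7 with the short GAGE1 form, against 39.9 for PRAME. That order was not the same under both labels. By group means, the GAGE sum per kilobase was above PRAME under the SINC label and below it under the SI label, with either GAGE1 length. From the SINC to the SI label the GAGE sum went from 40.9 to 21.1 CPM and PRAME from 101 to 119.

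The rows whose level followed a member most closely over the 6 libraries were found by the root mean square difference of centred log2 CPM, over 11166 rows. For PRAME they were SETDB1, a histone methyltransferase (0.0520), HSP90AB1, a cytosolic chaperone (0.0551), and RANBP10 (0.0594). For GAGE2A they were H2BC5, a histone H2B gene (0.0747), UQCC2, an assembly factor of respiratory complex III (0.0878), and TIMM8B, a mitochondrial import chaperone (0.0948). For GAGE12D the nearest, MDH1B, stood at 0.323 and C19orf81 at 0.324. For GAGE12G the nearest, SGK3, differed by 1.64, beside an SD of 2.96 for GAGE12G itself. SGK3 was also lowest in SI 1, at 0.0778 CPM. The samples share their libraries and their depth, and likeness over 6 libraries is a description.

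Other germline cancer-testis antigens were present in part. Of 111 genes in that list, which leaves out PRAME and GAGE, 19 had a row. Of these, 15 had a log2 fold change below 0 and 4 above, with a median of -0.11, and 0 passed in edgeR. The groups did not overlap in 4 with lower values under the SI label and in 1 with higher values, where 5.68% of all rows were lower and 7.36% higher by that rule. By an unadjusted edgeR p under 0.05, 4 were lower and 1 higher, where 4.22% of all rows were lower and 3.15% higher. Over all rows 5469 of 11957 had a log2 fold change below 0. With the length and GC trend removed, MAGEA1, MAGEA2B, MAGEC2, XAGE1A, ACTL8 and DKKL1 turned positive, and the others of the 15 stayed negative.

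PAGE1, a relative of the GAGE genes and the next protein-coding gene after GAGE1 on X in RefSeq, had 3.25, 1.21 and 1.03 CPM against 0.758, 0.727 and 0.728. SINC 1 was far above the other libraries, and the log2 fold change was -1.31 ± 0.52 (SE, edgeR adjusted p = 0.653). CSAG1 had 3.25 ± 0.764 CPM against 1.61 ± 0.571 (SD, n = 3) and CSAG2 had 1.32 ± 0.152 against 0.637 ± 0.0804 (SD, n = 3), though CSAG2 shares sequence with CSAG3 and CSAG4. ZNF165, a zinc finger protein of testis and tumours, had a log2 fold change of -1.01 ± 0.42 (SE). IGF2BP3, an RNA-binding protein of embryonic tissue, was the row higher under the SI label, with 0.89 ± 0.33 (SE). All 5 had an edgeR adjusted p of 0.653. With the length and GC trend removed, the log2 fold changes were -0.78 for PAGE1, -0.71 for CSAG1, -0.66 for CSAG2, -0.99 for ZNF165 and 0.68 for IGF2BP3.

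The MAGE-A genes of the same list overlapped between the groups. MAGEA6 had 35.2 ± 6.70 CPM against 36.8 ± 8.32 (SD, n = 3), a log2 fold change of 0.07 ± 0.22 (SE). MAGEA3 had 13.4 ± 0.430 against 13.6 ± 1.61 (SD, n = 3), and its log2 fold change was 0.03 ± 0.21 (SE). Of the 100-nt windows of MAGEA3 and of MAGEA6, 63.9% each were found in no other gene. Both genes share the other windows with one another, MAGEA2 or MAGEA2B. MAGEA1 had 8.26 ± 1.75 against 8.23 ± 1.57 (SD, n = 3). These MAGE proteins bind and steer ubiquitin ligases, and their transcripts are longer than those of GAGE, 1762 nt for MAGEA6. MAGEA2 and MAGEA2B, a pair of copies, were apart by at most 10 counts in a library, and together had -0.05 ± 0.29 (SE). XAGE1A and XAGE1B, another such pair, were apart by up to 128 counts and together had -0.69 ± 0.49 (SE), with overlapping groups. Whether GAGE differed from the MAGE-A genes in its response was not tested.

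**Figure D5:**
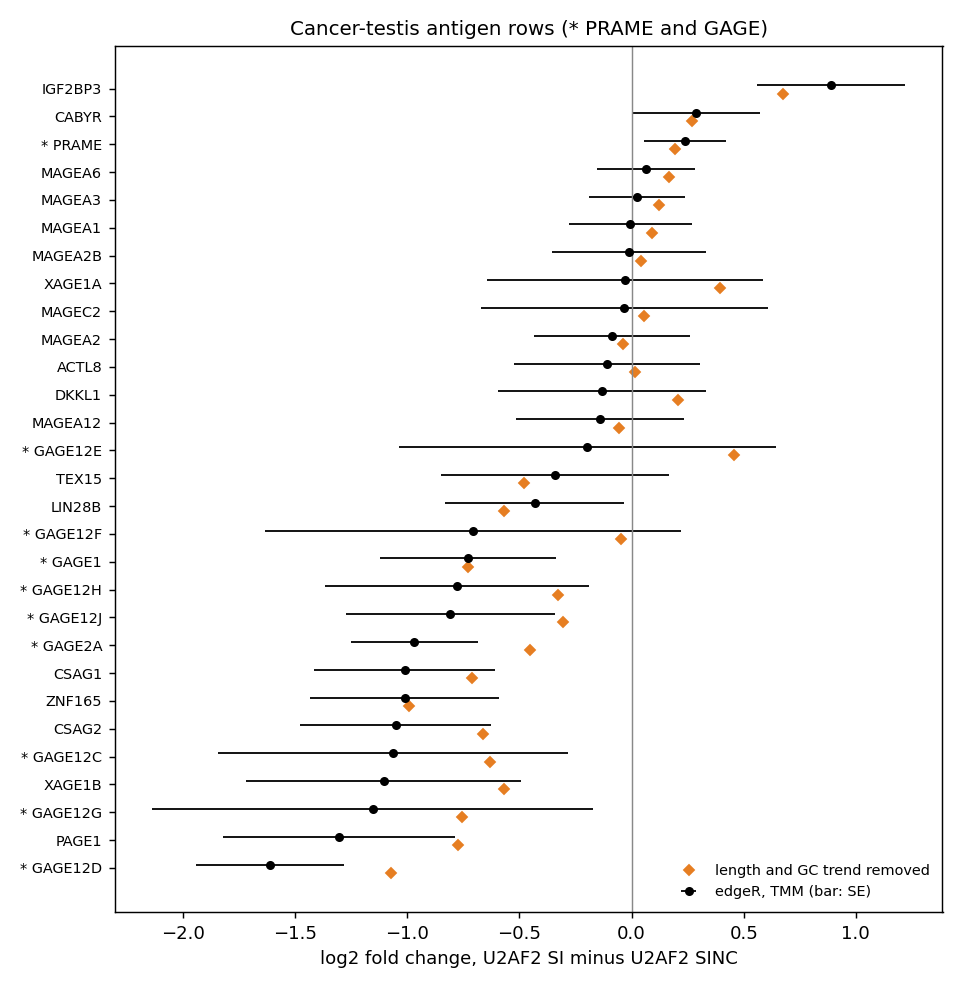
Log2 fold change, SI label minus SINC label, for PRAME, the GAGE rows (starred) and 19 other germline cancer-testis antigen rows; circles with bars are edgeR estimates ± SE and diamonds the estimates with the length and GC trend removed. The 9 GAGE rows lie between -1.61 and -0.20 before and between -1.07 and 0.46 after removal, with GAGE12E turning positive, and PRAME stays at 0.24 and 0.19.

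Genes of the CUL2 ligase and of retinoid signalling were counted next. All 16 genes of a list of CUL2 ligase subunits and of substrate receptors other than PRAME had rows. Of these, 8 were above 0 and 8 below, with a median log2 fold change of 0.04, and none passed by edgeR (0 of 16). Most of the list are such other receptors, so these counts do not describe the partners of PRAME alone. With p under 0.05 before adjustment there were 4, all lower under the SI label, where 4.22% of all rows were: these were the adaptors ELOB (-0.70 ± 0.26, SE) and ELOC (-0.52 ± 0.22), the RING subunit RBX1 (-0.49 ± 0.21) and the cullin modifier NEDD8 (-0.58 ± 0.24). The scaffold CUL2 had 9.92 ± 4.99 CPM against 13.6 ± 5.55 (SD, n = 3). With the length and GC trend removed, ELOB gave -0.24, RBX1 -0.24 and NEDD8 -0.12, while ELOC gave -0.62. Of 16 retinoid receptors and cofactors 14 had rows, 11 above 0 and 3 below, with a median of 0.26 and 0 passed. Over all rows 6488 of 11957 were above 0, with a median of 0.04. RARA, a receptor that PRAME is known to repress, had 10.6 ± 1.10 CPM against 11.3 ± 2.95 (SD, n = 3). Of 25 genes of retinoid handling and known targets 16 had rows, 10 above 0, with a median of 0.17 and 0 passed. Among them RDH10, a retinol dehydrogenase, had 22.5 ± 2.58 against 35.0 ± 8.11 CPM (SD, n = 3) and an edgeR adjusted p of 0.653. With the length and GC trend removed RDH10 gave a log2 fold change of 0.43, and the medians of both retinoid lists were lower than before.

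Of 41 genes of DNA methylation and of the repression of germline genes 39 had rows, 27 above 0 and 12 below, with a median log2 fold change of 0.15, and 0 passed in edgeR. Over all rows 6488 of 11957 were above 0, with a median of 0.04. With the length and GC trend removed the median of this list was lower than before. The maintenance methyltransferase DNMT1 had 94.7, 90.5 and 133 CPM against 138, 137 and 135, with SINC 3 close to the libraries labelled U2AF2 SI. Its partner UHRF1 had 64.4, 82.7 and 64.1 CPM against 100.1, 99.5 and 99.0, without overlap, and a log2 fold change of 0.50 ± 0.17 (SE, edgeR adjusted p = 0.653). The groups did not overlap in 5 genes higher under the SI label (DNMT1, DNMT3B, UHRF1, EHMT1 and CTCF) and in 1 lower (RING1), where 7.36% of all rows were higher and 5.68% lower by that rule. With the length and GC trend removed, these gave 0.20 for DNMT1, 0.10 for DNMT3B, 0.35 for UHRF1, 0.09 for EHMT1, 0.41 for CTCF and -0.11 for RING1. In these bulk libraries, fewer cells reading a gene and less RNA per cell cannot be told apart.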

How the data were processed

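The labels' protocols describe poly(A) enrichment, fragmentation, dUTP-based strand-specific synthesis and PCR. The submitters' processing notes name CASAVA and StringTie. Aligner, genome build and the counting of reads that match several copies: not given in the sources used here. The counts deposited by the authors are whole numbers per gene or locus and were used as raw counts, tied to libraries by the sample descriptions, which give the S columns to the SINC titles and the N columns to the SI titles, with 0 columns left unmapped. The lowest row mean was 31 counts, and genes below it were not analysed here. Reads were amplified by PCR and carry no molecular identifiers, so floors cover counting error only. Replicates of a group differed by a chi-square of 56.0 to 170 per degree of freedom.

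Differences were fitted with edgeR 4.0.16 in R 4.3.3 on all 11957 rows (TMM, filterByExpr, glmQLFTest, Benjamini-Hochberg adjustment, threshold 0.05), with SE from the F statistic, and the scripts were tested on simulated counts. The biological coefficient of variation was 27.0%. Alternatives were scaling by RLE, by upper quartile or by library size alone, a filter left out or set at a mean of 5 CPM, a replicate block, each library left out, DESeq2 1.42.0, limma-voom (limma 3.58.1), omission of the most abundant assembled locus, and subtraction of length and GC trends fitted by loess (span 0.3) in each library. Sums over copies were added after the data were seen. Transcripts, lengths and copies came from GENCODE release 29 and promoters from RefSeq GRCh38.p14. Lengths were found for 94.7% of rows.

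The members and lists were chosen with earlier results of these data known, and list genes were matched by exact symbol. Named genes were the members, U2AF2 and U2AF1, every measured germline antigen, up to 4 genes per list by smallest p and 3 by level, and 3 rows nearest each member. CUL2, RARA, DNMT3B, EHMT1 and RING1 were named for their role or after their values were seen.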

Additional observations from a re-analysis of the deposited data

How the results depend on the processing

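PRAME kept a positive log2 fold change in all 16 alternatives (0.13 to 0.40) and missed the threshold in the 15 that gave an adjusted p. DESeq2 gave none for PRAME, the GAGE rows or their sum, so it says nothing on their calls. The GAGE sum stayed negative in all 16 (-1.17 to -0.48, and -1.17 to -0.81 with a library left out), and 0 GAGE rows passed in the alternatives that gave an adjusted p. GAGE12E turned positive with library size alone (0.0685), without SINC replicate 1 (0.89), without SI replicate 3 (0.34) and with the length and GC trend removed (0.46), and ran from -0.95 to 0.89 with a library left out. No other GAGE row changed sign. Without SI replicate 3, GAGE1 gave -1.18, GAGE12H -1.67, GAGE12G -2.25 and GAGE12F -0.13. Library size alone moved the median of all rows from 0.04 to 0.22, and a mean of at least 5 CPM left 2 GAGE rows.

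Over all rows, 1 passed in edgeR. The count was 0 with upper-quartile scaling, library size alone, a mean of at least 5 CPM or the trend removed, 61 in DESeq2, and 0 to 2 with a library left out; with fewer rows or libraries the cause is partly the setting itself, and otherwise it was not tested. With the replicate number as a block 2 rows passed, PRAME gave 0.24 and the GAGE sum -0.96, and 0 GAGE rows passed. The correlations of deviations of same-numbered libraries were -0.09, 0.25 and -0.31, beside -0.35 to 0.46 for differently numbered ones. With 3 libraries per group they cannot tell whether the numbers pair the libraries. Counts of 19 to 52 per library in GAGE12J limit what a single copy can show.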

Other observations

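U2AF1, the small subunit that works with U2AF2, had 73.1 ± 14.3 CPM (SD, n = 3) under the SINC label and 59.6 ± 12.01 (SD, n = 3) under the SI label, with an edgeR adjusted p of 0.739.

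Among 34 broader testis antigens, 19 had rows, 13 above 0 and 6 below, with a median log2 fold change of 0.09, and 0 passed in edgeR. Over all rows 6488 of 11957 were above 0, with a median of 0.04. SPA17, a sperm surface protein, had 17.5 ± 3.75 CPM against 10.6 ± 1.04 (SD, n = 3), and SPAG4 had 12.1 ± 1.79 against 8.79 ± 0.329 (SD, n = 3), both without overlap. ODF2, a protein of sperm tail fibres and centrosomes, had 73.3 ± 4.96 against 87.7 ± 7.65 (SD, n = 3), also without overlap. These were the 2 lower and 1 higher of the 19 rows without overlap, where 5.68% of all rows were lower and 7.36% higher. Of 12 type II MAGE genes, which are read in many adult tissues, 7 had rows. MAGED1 had 62.4 ± 6.67 against 82.4 ± 8.22 CPM (SD, n = 3) and MAGEH1 had 11.9 ± 1.75 against 8.88 ± 0.526 (SD, n = 3), both without overlap and neither past the threshold. They were the 1 higher and 1 lower of the 7 rows without overlap, beside the same shares of all rows.

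Of markers of other cells, 0 of 5 for endothelium, 1 of 7 for leukocytes (CD68), 1 of 7 for melanocytes (PMEL) and 4 of 8 for fibroblasts had rows. COL3A1, a fibrillar collagen, ran from 36.1 to 72.9 CPM over the libraries.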
